A study of Mus musculus with 6 samples.

Results

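The fragile X protein family and its partners were represented by 5 genes, Fmr1, Fxr1, Fxr2, Cyfip1 and Cyfip2, of the 34797 gene names on the array. They were chosen by symbol, and every probe carrying one of these symbols was taken, which gave 8 of the 55681 probes that are not controls. Fmr1 had 3 probes, Fxr1 had 2, and Fxr2, Cyfip1 and Cyfip2 had 1 each. The study asked whether a higher folic acid (FA) content of the maternal diet alters gene expression in the cerebellum of the offspring. C57BL/6J dams ate an amino acid-based AIN-93G diet from 1 week before mating until the end of pregnancy, with FA at 2 mg/kg in the control group and at 20 mg/kg in the other. All pups shared the C57BL/6 background, the labels name no transgene or deleted allele, and tissue was taken on postnatal day 1 (P1). RNA was hybridized to 6 single-colour arrays. Each of the 2 sexes had 1 array for the 2 mg group and 2 for the 20 mg group, called replicates 1 and 2. Each array held a pool of 3 pups of 1 sex, each pup from a different dam, so a value is that of a pool and the spread between pups cannot be seen. At 2 mg there is no second pool of a sex and so no spread. The tissue field of the labels reads whole brain, whereas sample titles and protocols name the cerebellum.

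Fmr1 encodes FMRP, an RNA-binding protein that holds back the translation of many neuronal mRNAs, and its loss is the cause of fragile X syndrome. Fxr1 and Fxr2 are its autosomal paralogs, and their products share its RNA-binding domains and can form dimers with it. Cyfip1 and Cyfip2 encode the cytoplasmic FMRP-interacting proteins. These belong to the WAVE complex, which controls branching of actin filaments under the GTPase Rac1, and CYFIP1 also binds the cap-binding factor eIF4E and so links FMRP to translation. In the cerebellum, FMRP is known from Purkinje cells, where its targets act at synapses with metabotropic glutamate receptors.

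A probe on this array is a single-stranded DNA of 60 bases with the sequence of a stretch of 1 mRNA. The probes are shown because the results for Fmr1 turn on which of its 3 probes is read. Each is named below by the base of its transcript at which it starts, as the array design gives it. The probes at bases 471, 588 and 1576 are printed whole and the others by their first 30 bases, all 5′ to 3′ in the sense of the mRNA, with no part in capitals because no base within them was singled out.
Fmr1 base 471: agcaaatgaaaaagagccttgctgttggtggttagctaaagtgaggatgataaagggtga
Fmr1 base 588: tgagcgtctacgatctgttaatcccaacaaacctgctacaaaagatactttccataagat
Fmr1 base 4147: gctgaattcagcaaggcgctaacttgctta
Fxr1 base 1576: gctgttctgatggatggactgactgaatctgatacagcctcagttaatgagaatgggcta
Fxr1 base 1870: ttgccaaagatagaatacggatcgccagtc
Fxr2 base 2892: ccttgtctggtggatgagaaggcgtattta
Cyfip1 base 4509: ctctgttcaagtaaatccaacagtgagtct
Cyfip2 base 6591: gtacctgtgttgagtcgataaaacattttc

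In the mouse build mm9, which the array design uses, the Fmr1 probes lie on the plus strand of the X chromosome at chrX:65948200-65948259, chrX:65948720-65948779 and chrX:65970891-65970950, in the order of their bases. The Fxr1 probes lie at chr3:33963181-33963240 and chr3:33968072-33968131 on the plus strand, and the Fxr2 probe lies at chr11:69466722-69466781 on the plus strand. The Cyfip1 probe lies at chr7:63185989-63186048 on the plus strand and the Cyfip2 probe at chr11:46007360-46007419 on the minus strand. All 8 match mRNA of the named gene in the array design, so they are exonic, and no annotation of this build was used to divide exons into coding and untranslated parts. In the Fmr1 probe at base 4147 and in the probes of Cyfip1 and Cyfip2, all 3 reading frames hold a stop codon. Although Fmr1, Fxr1 and Fxr2 are paralogs, the longest run of bases shared by probes of different member genes was 8. No other probe of the array shared a run of 20 bases with any of the 8. The GC content of the probes was between 35.0% and 45.0%.

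Levels are given as log2 normalized signal, the log2 of the brightness of a probe after all arrays had been put on a common distribution, and a difference of 1 is a doubling. A spot was called well above background when the scanner software had marked it so. The array labelled female 20 mg replicate 2 stood apart. On it 23.3% of the probes passed this mark, while 51.1% to 71.9% did so on the others, and its mean rank correlation with the other arrays was 0.658, against 0.861 to 0.889. Its sex-linked transcripts matched neither sex in full. The Y-linked Eif2s3y was well above background there at 10.12, near the 10.62 to 11.99 of the male arrays and above the 3.32, the minimum set here, and 4.04 of the other female arrays, the latter also marked as well above background. The Y-linked Ddx3y was not well above background there at 7.71, below the 9.41 to 10.46 of the male arrays, where it was, and above the minimum on the other female arrays. Xist was not well above background there at 7.27, between the minimum on the male arrays and the 9.67 and 10.84 of the other female arrays. The female difference of each member is therefore given with and without this array, where the other arrays were normalized again. Cerebellar markers, 16 genes, were well above background in 16, 16, 9, 16, 15 and 14 cases on the arrays female 2 mg, female 20 mg replicates 1 and 2, male 2 mg, and male 20 mg replicates 1 and 2. In the same order, 10, 10, 3, 9, 10 and 6 of 10 forebrain markers were well above background. The summed normalized signal of 8 choroid plexus markers was 6292 on the female 2 mg array and between 27356 and 80948 on the others, and that of 8 meningeal markers ran from 40749 on the female 20 mg replicate 1 array to 124563 on the male 20 mg replicate 1 array. For 8 red blood cell genes the sum was between 107156 and 360960. The part of these tissues in the values of the 5 genes was not tested, and in such samples fewer cells of a type and less RNA per cell cannot be told apart.

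All 8 member probes were well above background on each of the 5 other arrays, and no member spot was saturated. On the array with the label female 20 mg replicate 2, the probes of Fxr2, Cyfip1, Cyfip2 and the Fxr1 probe at base 1870 were well above background, and all 3 Fmr1 probes and the Fxr1 probe at base 1576 were not. Of all 25743 probes well above background on the 5 other arrays, 12401 (48.2%) were so on this one, so 4 of 8 members is close to the share of all probes. The lowest signal well above background on this array was 8.82.

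**Figure D1:**
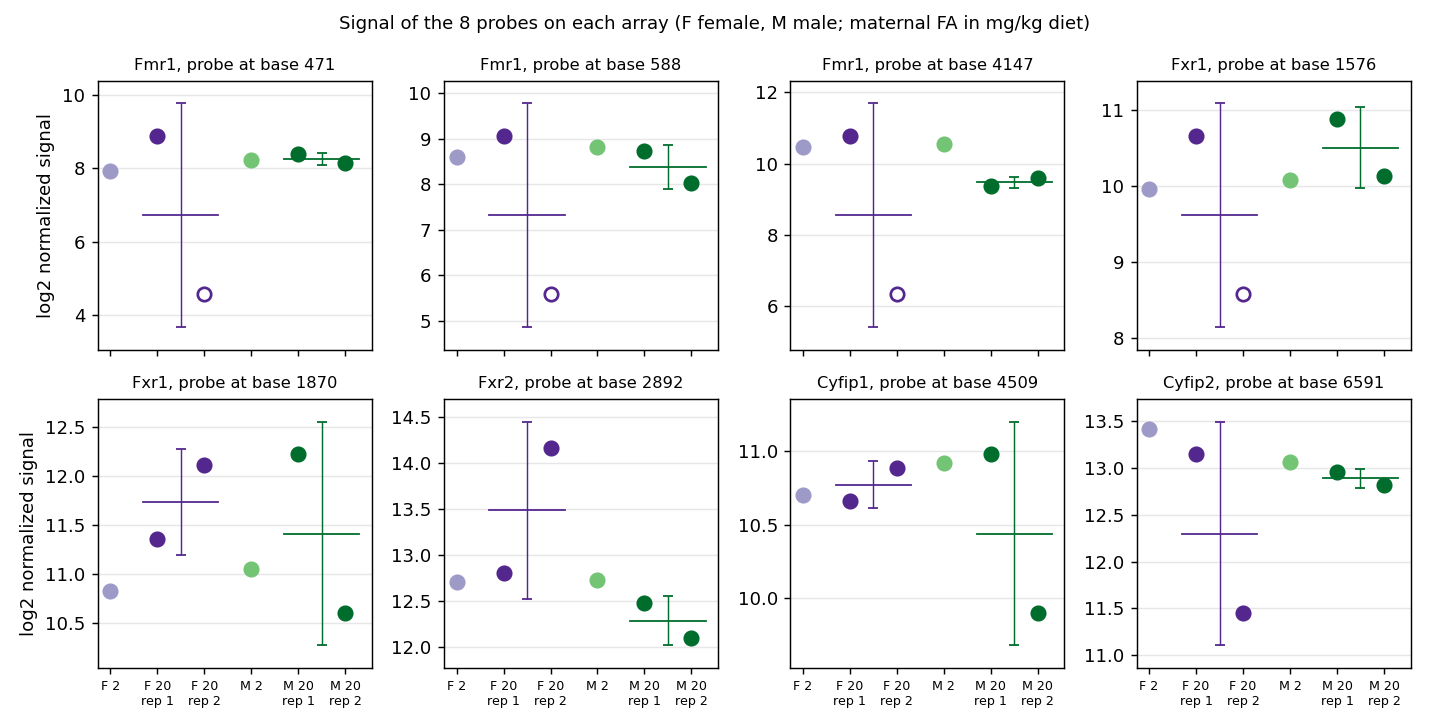
Log2 normalized signal (vertical axis, a separate scale in each panel) of the 8 probes on the 6 arrays (horizontal axis, F female, M male, with maternal FA in mg/kg diet). Open circles are spots not well above background, horizontal lines are the means of the 2 arrays at 20 mg, and bars are ± 1 SD; the array labelled female 20 mg replicate 2 lies lowest in all 3 Fmr1 panels, while on the other 5 arrays the probe at base 4147 runs from 9.36 to 10.77.

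Fmr1, the X-linked gene of the family, gave different dose differences with its 3 probes in males, from near 0 to a level about 2-fold lower at 20 mg. The probe at base 4147, the brightest of the 3, measured 10.54 on the male 2 mg array and 9.36 and 9.59 on the male 20 mg arrays. In females it measured 10.48 at 2 mg and 10.77 at 20 mg on the replicate 1 array, and 6.33, not well above background, on the array labelled replicate 2. Both male arrays at 20 mg thus lay below all the arrays at 2 mg, and the female replicate 1 array lay above them.

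The probe at base 471 measured 8.22 on the male 2 mg array and 8.39 and 8.15 on the male 20 mg arrays. In females it measured 7.93 at 2 mg, 8.88 at 20 mg on the replicate 1 array and 4.56, not well above background, on the array labelled replicate 2. The male 20 mg arrays lay on either side of the male 2 mg array with this probe. The probe at base 588 measured 8.81 at 2 mg and 8.73 and 8.04 at 20 mg in males, and 8.60 at 2 mg and 9.06 at 20 mg on the replicate 1 array in females. On the array with the label female 20 mg replicate 2 it measured 5.58, not well above background.

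The mean of the male 20 mg arrays for Fmr1 at base 4147 was 9.47 ± 0.16 (SD, n = 2), a difference of -1.07 on the log2 scale, or 2.10-fold lower than at 2 mg. This is larger than the spread between the 2 pools at 20 mg. On the 2 arrays this probe lay at percentiles 15.2 and 17.1 of the differences of all probes tested. Its mean difference did not reach the 2.5-fold that the study set as its limit, but was -1.50, past that limit, in the values the authors deposited. With scan day as a block it was 0.10. That fit takes 1 day difference for both sexes, partly from the array labelled female 20 mg replicate 2. With the arrays of the later scan day alone, a comparison chosen after seeing the data, it was -0.93. The other probes gave differences of 0.05 (SD 0.17, n = 2) at base 471 and -0.43 (SD 0.49, n = 2) at base 588, both within the spread of the pools. With the mean of the 3 probes in place of the brightest, the male difference of Fmr1 was -0.48.

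In females, the mean at 20 mg of the probe at base 4147 was 8.55 ± 3.14 (SD, n = 2), a difference of -1.93 or 3.80-fold lower, within a spread that comes from the array labelled replicate 2. Without that array the difference was 0.28, the opposite direction. Against the lowest signal well above background on this array, Fmr1 at base 4147 was 3.15-fold lower there than on the female 2 mg array. This is not a strict minimum, since probes without the mark can also lie above that signal. At bases 471 and 588 the 2 mg values themselves lie below that limit, so no fold can be given. The differences in females were -1.21 (SD 3.06, n = 2) at base 471 and -1.28 (SD 2.46, n = 2) at base 588, and both turned upward, to 0.98 and 0.46, without the array labelled replicate 2. The female 2 mg and 20 mg replicate 1 arrays shared a slide, and within it the differences were 0.95, 0.46 and 0.29 at bases 471, 588 and 4147. No slide held male arrays of both doses.

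Fxr1, the paralog known for its role in striated muscle, was measured by a pair of probes that did not give the same picture. The probe at base 1870, the brighter, measured 10.82 at 2 mg and 11.35 and 12.11 at 20 mg in females, so both 20 mg arrays lay above the 2 mg array. In males it measured 11.05 at 2 mg and 12.22 and 10.60 at 20 mg, on either side. The mean difference was 0.91 in females (SD 0.54, n = 2) and 0.36 in males (SD 1.14, n = 2). The female difference is larger than the spread of the pools at 20 mg, and the male one is smaller. Without the array labelled replicate 2 the female difference was 0.50.

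The probe of Fxr1 at base 1576 measured 9.96 at 2 mg, 10.66 at 20 mg on the replicate 1 array and 8.58, not well above background, on the array labelled replicate 2 in females. In males it measured 10.09 at 2 mg and 10.89 and 10.13 at 20 mg. The mean differences were -0.34 (SD 1.47, n = 2) in females and 0.42 (SD 0.54, n = 2) in males, both within the spread. Without the array labelled replicate 2 the female difference turned upward, to 0.68. On the array with the label female 20 mg replicate 2 the 2 probes of Fxr1 departed from the 2 mg array in opposite directions, by 1.29 at base 1870 and by -1.38 at base 1576. Against the lowest signal well above background there, the latter was 2.21-fold lower. With both probes averaged, the female difference of Fxr1 was 0.28.

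Fxr2, a paralog known from neurons, lay within 0.71 on the log2 scale over the 5 arrays other than the array labelled female 20 mg replicate 2. It measured 12.71 at 2 mg and 12.80 and 14.17 at 20 mg in females. In males it measured 12.72 at 2 mg and 12.48 and 12.09 at 20 mg. The 20 mg arrays lay above the 2 mg array in females and below it in males. The mean differences were 0.78 (SD 0.97, n = 2) in females, within the spread, and -0.44 (SD 0.27, n = 2) in males, larger than the spread. Without the array labelled replicate 2 the female difference was 0.09.

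Cyfip1 measured 10.70 at 2 mg and 10.66 and 10.88 at 20 mg in females, the narrowest set of values among the members in that sex. In males it measured 10.92 at 2 mg and 10.98 and 9.90 at 20 mg, with the replicate 2 array lowest of all 6. The differences were 0.07 (SD 0.16, n = 2) in females and -0.48 (SD 0.76, n = 2) in males, both within the spread. The female difference was -0.04 without the array labelled replicate 2.

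Cyfip2 was lower on all 4 arrays at 20 mg than on the 2 mg array of its sex, by amounts that were small on 3 of them. It measured 13.42 at 2 mg and 13.15 and 11.45 at 20 mg in females. In males it measured 13.06 at 2 mg and 12.96 and 12.82 at 20 mg. Among all probes tested on the same array, its differences lay at percentiles 28.8 and 24.4 in females and 42.6 and 46.4 in males. The differences were -1.12 (SD 1.20, n = 2) in females, or -0.26 without the array labelled replicate 2, and -0.17 (SD 0.10, n = 2) in males. The male difference is larger than the spread of its 2 pools, and the female one is within its spread. With scan day as a block, fitted partly from the array labelled female 20 mg replicate 2, the male difference turned to 0.21. With the arrays of the later scan day alone, a comparison chosen after seeing the data, it was -0.25.

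Across the members, the spread of the 20 mg arrays was as large as or larger than the difference in 7 of 8 probes in females and in 5 of 8 in males. The 3 male probes with a difference beyond the spread were Fmr1 at base 4147, Fxr2 and Cyfip2, all lower at 20 mg, and the 1 female probe was Fxr1 at base 1870, higher. With 2 arrays at 20 mg and 1 at 2 mg, an SD of this kind rests on a single difference between pools. The share of all probes with a difference beyond this spread was not counted. Nothing is therefore read from these member counts, or from a single difference being larger than its spread. By the rule of the study, which keeps probes that vary over the arrays and then asks for 2.5-fold between means, 3 of the 8 probes were kept, all of Fmr1. With the normalization used here, Fmr1 at base 4147 was the 1 probe called, as lower in females, and none of the 3 was called in males. In the values the authors deposited, the rule called 2 member probes in females and 1 in males. Of the 14487 probes kept there, 5809 were called lower and 2363 higher in females, and 1340 lower and 747 higher in males. With the normalization used here, 15247 probes were kept over the array. Of these, 37.6% were called lower and 31.6% higher in females, and 7.92% lower and 5.18% higher in males. The 1 of 3 in females is thus near the share of all probes. The split rests on the scaling: after a shift of each array to a common 75th percentile in place of quantile normalization, 354 probes were lower and 1723 higher in females, against 5737 and 4815, and 275 were lower and 426 higher in males, against 1208 and 790. Under this scaling the filter kept 2432 probes, none of them a member, so no member could be called, and the female difference of Fmr1 at base 4147 was -1.55, still past 2.5-fold.

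**Figure D2:**
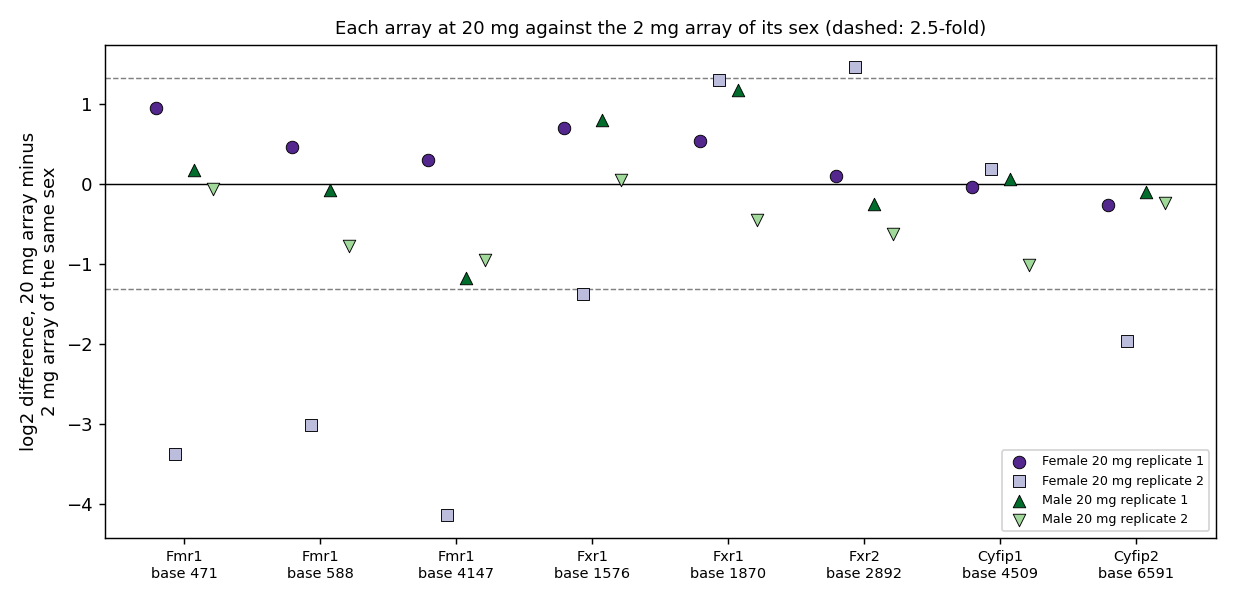
Difference in log2 normalized signal between each 20 mg array and the 2 mg array of its sex (vertical axis) for the 8 probes (horizontal axis), with symbols for the 4 arrays at 20 mg and dashed lines at 2.5-fold. The points past the dashed lines are 6 in number, and all belong to the array labelled female 20 mg replicate 2, whose values for Fmr1 and for Fxr1 at base 1576 were not well above background.

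Taken array by array, none of the 8 probes departed from the 2 mg array of its sex by 2.5-fold on female 20 mg replicate 1 or on either male 20 mg array. On the array with the label female 20 mg replicate 2, the normalized values of 5 probes were lower and that of 1, Fxr2, was higher by that amount. Of the 5, Cyfip2 was well above background. Against the lowest signal well above background, Fmr1 at base 4147 was also lower by more than 2.5-fold and Fxr1 at base 1576 by 2.21-fold. No fold can be given for Fmr1 at bases 471 and 588. The share of all 37206 probes past 2.5-fold in either direction was 5.01% on female 20 mg replicate 1, 52.8% on the array with the label female 20 mg replicate 2, 19.3% on male 20 mg replicate 1 and 18.3% on male 20 mg replicate 2. On male 20 mg replicate 2, 7 of the 8 probes were below the 2 mg array, from -1.02 for Cyfip1 to -0.07 for Fmr1 at base 471, and the exception was Fxr1 at base 1576 at 0.04. Of all probes tested, 54.0% lay below that -0.07 on this array. On male 20 mg replicate 1, 4 probes were lower and 4 higher, between -1.18 for Fmr1 at base 4147 and 1.17 for Fxr1 at base 1870. There, 48.7% of all probes tested lay below the 0.06 of Cyfip1. On female 20 mg replicate 1, 6 of 8 were higher, up to 0.95 for Fmr1 at base 471. The median over all probes tested was 0.03 on that array.

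The dose difference was tested with limma over all 37206 probes well above background on at least 2 arrays, in 4 groups of sex and dose that share 1 estimate of the spread. Since each sex has a single 2 mg array, its error is borrowed from the 20 mg pools. No member passed, in either sex or over both, and the Benjamini-Hochberg adjusted p was 1.00 for every member. The share of all probes called was 0% in males, 0% in females, 0% over both sexes, and 0% for the interaction of dose and sex and for sex itself. At an unadjusted p under 0.05 there were 74, 161, 144, 51 and 54 probes in these contrasts, none of them a member. Each count is below what that limit alone would give among 37206 probes, so the test erred toward few calls. The lowest unadjusted p of a member was that of Fmr1 at base 4147 over both sexes, where limma gave a difference of -1.50 (SE 1.13), a 95% confidence interval from -3.86 to 0.86, an unadjusted p of 0.201 and an adjusted p of 1.00. In females the same probe had an interval from -5.27 to 1.41 (SE 1.60) and in males from -4.41 to 2.27 (SE 1.60). The SE is the same because the groups share 1 estimate. The 20 mg pools themselves had an SD of 3.14 in females and 0.16 in males. The intervals of both sexes hold 0 and reach beyond 2.5-fold in either direction. The lack of a call thus does not show a lack of difference, in males or in females.

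**Figure D3:**
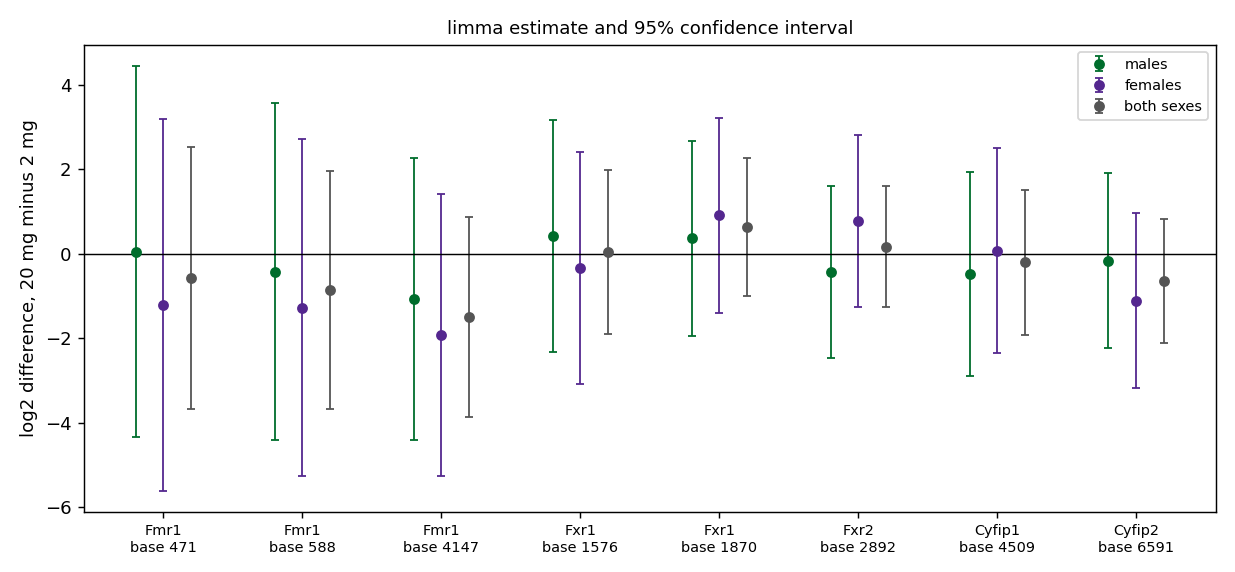
Estimates by limma of the difference in log2 normalized signal between 20 mg and 2 mg (vertical axis) for the 8 probes (horizontal axis), for males, for females and for both sexes combined, with 95% confidence intervals as bars. Every interval crosses 0, and those of the 3 Fmr1 probes are the widest.

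The intervals were narrowest for the bright probes. Over both sexes the SE was between 0.69 for Fxr2 and 1.49 for Fmr1 at base 471, and Cyfip2 was estimated at -0.65 (SE 0.71) with an interval from -2.11 to 0.82. Fxr1 at base 1870 was estimated at 0.64 (SE 0.79), Cyfip1 at -0.20 (SE 0.82) and Fxr2 at 0.17 (SE 0.69). Whether the dose difference itself differed between the sexes was tested by the interaction term of limma. The member with the lowest p there was Fxr2, with a female minus male difference of 1.21 (SE 1.39, adjusted p = 1.00). For Fmr1 at base 4147 the interaction was -0.86 (SE 2.27, adjusted p = 1.00), so a larger difference in females was not shown.

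Fmr1 is X-linked and subject to X inactivation, so its level was also compared between the sexes. At 2 mg the female and male arrays measured 7.93 and 8.22 at base 471, 8.60 and 8.81 at base 588, and 10.48 and 10.54 at base 4147. The male array was the higher with each probe, by little, and with 1 array a sex there is no error for this. Over both doses, limma gave a female minus male difference of -0.50 (SE 1.13, adjusted p = 1.00) at base 4147, a value that includes the array labelled female 20 mg replicate 2. Among all members the lowest p for sex was that of Fxr2, with a limma difference of 0.59 (SE 0.69), an unadjusted p of 0.403 and an adjusted p of 1.00.

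The probes of Fmr1 at bases 471 and 4147 are 3676 bases apart on 1 transcript, and on the 3 arrays at 20 mg where both were well above background the dose difference of the later probe was below that of the earlier one. The later minus earlier difference was -0.66 on female 20 mg replicate 1, -1.35 on male 20 mg replicate 1 and -0.89 on male 20 mg replicate 2. The same quantity was taken for all 1356 transcripts with a pair of probes at least 1000 bases apart that were well above background on the 5 other arrays. The median over these pairs was -0.12, -0.07 and -0.59 on these arrays, and Fmr1 lay at percentiles 23.2, 11.7 and 36.6 of them. On these 3 arrays, 354 of the 1356 pairs (26.1%) were below 0 each time, so Fmr1 shares this with many transcripts. The probe at base 588 lay between them, with a later minus middle difference of -0.17, -1.10 and -0.18.

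**Figure D4:**
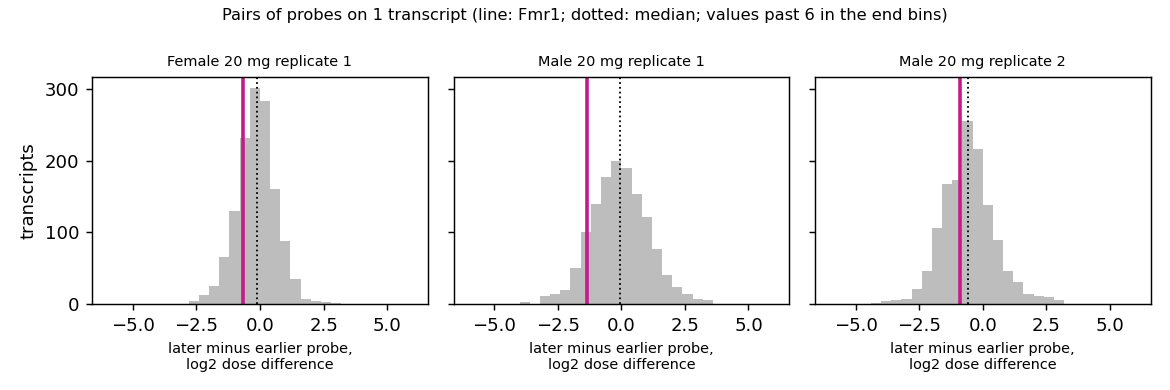
Number of transcripts (vertical axis) by the difference between their later and earlier probe in the log2 dose difference (horizontal axis), for the 20 mg arrays other than the array labelled female 20 mg replicate 2, over 1356 transcripts, with values past 6 in the end bins. The coloured line is Fmr1, at -0.66, -1.35 and -0.89 from left to right, and the dotted line is the median of all pairs.

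The profile of each member over the 6 arrays was compared with those of all other genes by the root-mean-square (RMS) difference in log2 signal after each profile had been centred on its own mean. Closest to Fmr1 at base 4147 were Clint1, a clathrin adaptor gene, at 0.07 and Dkc1, which encodes dyskerin, at 0.09. For Fxr1 they were Wnt3 at 0.07 and Stk38l at 0.09, for Fxr2 Jak2 and Nmb at 0.05 each, for Cyfip1 Grm5 at 0.05 and Lman2 at 0.06, and for Cyfip2 B3gnt9-ps and Mpped2 at 0.10 each. The members were farther from one another than from these genes. Nothing is read from this, since these genes were picked as the nearest of all. Fxr1 and Cyfip1 were the closest pair at 0.45, Cyfip2 was the member nearest to Fmr1 at 0.91, and Fxr2 was the farthest from it at 2.05. These are descriptions over 6 arrays, chosen from all probes tested, and the distances of Fmr1 are dominated by the array labelled female 20 mg replicate 2.

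The genes around the family were read from 4 lists, with the brightest probe standing for each gene. No gene of any list passed limma in either sex or over both. All 8 genes of the WAVE complex list, which holds the complex that the CYFIP proteins belong to and its activator Rac1, were tested. Over both sexes 1 was higher and 7 were lower, beside 15398 higher and 21808 lower of all probes tested. The median difference of the list was 0.22 in males and -1.17 in females, and the median over all probes tested was -0.04 and -0.21. On female 20 mg replicate 1 alone the median of this list was -0.19, and on the array labelled replicate 2 it was -2.33, so the female value comes from the latter. Wasf3, a WAVE subunit that nucleates actin through Arp2/3, had the highest difference over both sexes at 0.08 (SE 1.54), and Abi1, an adaptor subunit, the lowest at -0.76 (SE 1.29). Abi1 measured 9.18 at 2 mg and 8.30 and 6.44 at 20 mg in females, the last not well above background, and 8.25 at 2 mg and 9.19 and 7.89 at 20 mg in males.

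Of 20 partners of FMRP in messenger ribonucleoprotein particles, 7 were higher and 13 lower over both sexes, beside 15398 higher and 21808 lower of all probes tested. The median was 0.14 in males and -0.26 in females, and array by array it was -0.01 for female 20 mg replicate 1 and -0.87 for the array labelled replicate 2, where all probes had 0.03 and -0.48. By the fold rule, 5 were kept and 2 were called lower in females, against the 37.6% of all probes. Pura, which encodes a protein binding purine-rich single strands, had the highest difference at 0.87 (SE 0.77), and Ago2, the Argonaute of the silencing complex, the lowest at -2.34 (SE 1.35). Ago2 measured 11.2 at 2 mg and 10.3 and 10.9 at 20 mg in males, and 11.3 at 2 mg, 10.8 at 20 mg on the replicate 1 array and 3.56, not well above background, on the array labelled replicate 2. Its unadjusted p was 0.0429 in females in limma and its adjusted p was 1.00.

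Of 20 mRNAs known as targets of FMRP, 8 were higher and 12 lower over both sexes, beside 15398 higher and 21808 lower of all probes tested. The median was 0.06 in males and -0.12 in females, with -0.06 for female 20 mg replicate 1 and -0.52 for the array labelled replicate 2. By the fold rule 4 were kept and 3 were called lower in females, where 37.6% of all kept probes were, and none in males. With 4 genes kept, nothing is read from this count. Dlgap3, a postsynaptic scaffold gene, had the highest difference at 0.88 (SE 0.71), and Kcnc1, a potassium channel gene, the lowest at -2.21 (SE 1.14). Kcnc1 measured 10.8 at 2 mg and 8.53 at 20 mg on the female replicate 1 array and 5.09, not well above background, on the array labelled replicate 2. In males it measured 10.3 at 2 mg and 10.1 and 9.79 at 20 mg, so all 4 arrays at 20 mg lay below their 2 mg array. Its unadjusted p was 0.0205 in females in limma and its adjusted p was 1.00.

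The last list held 20 genes of metabotropic glutamate receptor signalling, the pathway that drives the translation FMRP restrains. Over both sexes 7 were higher and 13 lower, beside 15398 higher and 21808 lower of all probes tested. The median of the list was -0.29 in males and 0.09 in females. For female 20 mg replicate 1 the median was 0.16, and it was -0.27 for the array labelled replicate 2. By the fold rule 4 were kept, 2 were called lower in females, where 37.6% of all kept probes were, and 1 was called lower in males, where 7.92% were. Homer3, a scaffold of these receptors in Purkinje cells, had the highest difference at 0.81 (SE 1.39), and Rheb, the GTPase that activates mTORC1, the lowest at -1.73 (SE 0.95). Rheb measured 11.9 at 2 mg and 8.62 and 10.9 at 20 mg in males, and 11.9 at 2 mg and 12.0 and 9.09 at 20 mg in females, the last not well above background. The female replicate 1 array thus lay at its 2 mg level, while both male arrays at 20 mg lay below theirs.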

How the data were processed

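RNA from P1 cerebellum was measured on 6 arrays. To obtain intensities from the scans, the authors used Agilent Feature Extraction v10.7.3.1, which subtracts background and does not scale between arrays. The log2 values in the authors' deposited table were quantile normalized with a minimum of 10 and served as an alternative. Here, outlier spots were dropped, processed signals averaged per probe, log2 transformed, quantile normalized and set to a minimum of 10. The filter on variation (chi-square p at or under 0.05, at most 50% missing) and the 2.5-fold limit followed the methods of the study. limma v3.58.1 in R v4.3.3 used 4 groups, a trend in eBayes, 2 residual degrees of freedom, probes well above background on at least 2 arrays and Benjamini-Hochberg adjustment at 0.05, and was tested on simulated data. The number of arrays limits the precision. Arrays lay on 3 slides, scanned on 2 days, and the earlier day held male 20 mg replicate 1 beside the array labelled female 20 mg replicate 2. Per the labels, the 20 mg extractions were repeated from a different batch, and which replicate that was is not given. The members and lists were chosen with earlier results of these data known. Genes named beside the members are the highest and lowest of each list over both sexes and the 2 nearest profiles of each member. Alternatives were the scaling, the background correction (normexp with an offset of 50, or none), the place of the minimum, the filters, slide and scan day as blocks, and leaving out each 20 mg array. Probe positions are in mm9.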

Additional observations from a re-analysis of the deposited data

Results flagged for a closer look

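Fxr2 was picked out because both female 20 mg arrays lay above the female 2 mg array, by 0.09 and 1.46 on the log2 scale, and both male 20 mg arrays lay below the male 2 mg array, by -0.25 and -0.63. The difference between the sexes was 1.21 (SE 1.39), and limma gave an unadjusted p of 0.391 and an adjusted p of 1.00 for it. The larger of the female values is that of the array labelled female 20 mg replicate 2, whose sex-linked transcripts matched neither sex in full. No group had the 4 arrays needed to look for single outlying samples.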

How the results depend on the processing

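Of 220 values of the member differences under alternatives, 199 lay within the spread of the pools, 11 moved beyond it and 10 were counted as turned in direction. Within a sex, a turn was counted only for a probe that the fold rule had called. Other turns are among the 199 or the 11. Those of Fmr1 at bases 471 and 588 in females without the array labelled replicate 2 are among the 199. For the Fmr1 probes in females the spread, an SD of 2.46 to 3.14, comes from that array. Few alternatives could move beyond it, so the 199 are not read as stability. No paired analysis was possible because the 2 mg groups have 1 array each, which carries no replicate number to match with those at 20 mg. The deposited table gave -1.50 for Fmr1 at base 4147 in males, past 2.5-fold. For the same probe in females the difference was 0.28 without the array labelled female 20 mg replicate 2, and it was -4.08 without female 20 mg replicate 1. It was 0.28 with the arrays of the later scan day alone (a comparison chosen after seeing the data) and 0.29 within slide 1. Slide was also taken as a block in an additive fit of sex and dose. The dose differences were 1.83 (SE 2.05), 1.19 (SE 1.86) and 1.03 (SE 1.35) for Fmr1 at bases 471, 588 and 4147. They were -0.33 (SE 0.87) for Fxr2 and 0.20 (SE 0.87) for Cyfip2. Only slide 1 held both doses. The fit thus rests on its arrays and on the sex difference on slide 2, which holds the array labelled female 20 mg replicate 2. With scan day as a block the differences over both sexes were 0.44 for Fmr1 at base 471 and -0.27 for Fxr2. In males, Fmr1 at base 4147 moved from -1.07 to 0.10, Cyfip2 from -0.17 to 0.21 and Fxr2 from -0.44 to -0.88. That fit takes 1 day difference for both sexes, partly from the array labelled female 20 mg replicate 2. With the arrays of the later scan day alone, the male differences were -0.93, -0.25 and -0.61 in the same order. The cause of these moves was not tested. Slide as a random block could not be fitted in 4 groups and was run in the additive fit. The 2 mg arrays, 1 a sex, were not left out in turn.

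No member reached an adjusted p under 0.05 in limma under any setting, and the lowest was 0.250, for Fmr1 at base 4147 in females without female 20 mg replicate 1, where the array labelled female 20 mg replicate 2 stands alone at 20 mg and is assumed to vary like the other groups. Over the rest of the array, limma called 3 probes in females and 11 for sex after the 75th percentile shift, 3 and 3 after normexp, and 1 and 1 with uncorrected brightness. It called 1 for sex with the minimum set before normalization, and 1 over both sexes and 81 for sex with slide as a block. Leaving out 1 array gave 0 to 1 calls in males, 0 to 96 in females, 0 to 13 over both sexes, 0 to 2 for the interaction and 0 to 5 for sex. The highest count in females, 96, and that over both sexes, 13, came without female 20 mg replicate 1.

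The fold rule called 1208 probes lower and 790 higher in males, and 5737 lower and 4815 higher in females. A common 75th percentile, under which the median dose difference over all probes moved by 0.73 in females and -0.03 in males, gave 275, 426, 354 and 1723. Normexp gave 611, 198, 2211 and 1349, and uncorrected brightness 590, 186, 1970 and 1134. The minimum before normalization gave 2541 higher in females, and 2363 were higher in females in the deposited values. The later scan day alone gave 4208, 5097, 1699 and 1198. Leaving out 1 array gave 1047 to 2827 lower and 685 to 2370 higher in males, and 1435 to 7628 lower and 985 to 5891 higher in females, where the lowest counts came without the array labelled female 20 mg replicate 2. The number of member probes called in females, 1 of 3 kept, was 0 after the 75th percentile shift, where the filter kept no member and the difference of Fmr1 at base 4147 was -1.55, 3 with the minimum before normalization, 2 in the deposited table, 0 with the later scan day alone and 0 to 3 with 1 array left out, with 0 when the array labelled female 20 mg replicate 2 was left out and 3 when female 20 mg replicate 1 was. In males it was 0, and 1 in the deposited table.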
